A study of Arabidopsis thaliana with 28 samples.

Results

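The 5p arms of the Arabidopsis thaliana miR165 and miR166 hairpins were followed through 24 h of abscisic acid (ABA) treatment. They were chosen by name, as the entries of the deposited miRNA table that are the 5p arms of MIR165 and MIR166 loci. There were 4 of them among 421 mature miRNAs, listed as ath-miR165a-5p, ath-miR166a-5p, ath-miR166b-5p and ath-miR166e-5p, where ath stands for the species. The ABA groups were wild-type Col-0 seedlings kept with ABA, and the mock groups were wild-type Col-0 seedlings kept with the ethanol mock, both collected whole at 0.5, 1, 3, 6, 9, 12 and 24 h. Each of the 14 groups had 2 libraries, 28 in all, made from total RNA. The sources used here give neither the age of the seedlings nor the concentration of ABA. They also do not state whether paired libraries were grown separately, so p-values measure the spread between these libraries, which may be technical.

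A miRNA is cut out of a hairpin as a duplex of 5p and 3p strands. One strand, the guide, is loaded into an Argonaute protein and directs the cleavage or repression of target mRNAs, while the other, the passenger, is mostly discarded. In miR165 and miR166 the guide is the 3p strand. It acts on the mRNAs of the class III homeodomain leucine zipper transcription factors, such as PHABULOSA and REVOLUTA, and so helps to set the upper and lower faces of the leaf, the vascular pattern and the shoot meristem. ABA is the hormone of the drought response and of seed dormancy. Because all loci of miR166 give the same guide, and so do both loci of miR165, a guide read cannot be assigned to its locus, while the 5p arms differ between most of them.

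The 4 arms are printed because they hold 3 distinct sequences, which decides what their counts can separate. They are the RefSeq TAIR10.1 sequences, 5′ to 3′, with the seed (bases 2 to 8) in capitals, followed by the 2 guide sequences of the family.

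miR165a-5p: gGAAUGUUgucuggaucgagg
miR166a-5p: gGACUGUUgucuggcucgagg
miR166b-5p: gGACUGUUgucuggcucgagg
miR166e-5p: gGAAUGUUgucuggcacgagg
miR165a-3p: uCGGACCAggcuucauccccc
miR166a-3p: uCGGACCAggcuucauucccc

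All 4 arms are 21 bases long and start with G, whereas both guides start with U. By seed they form 2 pairs. The seed GAAUGUU belongs to miR165a-5p and miR166e-5p, and the seed GACUGUU to miR166a-5p and miR166b-5p, which are identical over all 21 bases. Counted from 1 at the 5′ end, miR165a-5p differs from miR166a-5p by A4C and A15C, and from miR166e-5p by A15C and U16A. The change from miR166a-5p to miR166e-5p is C4A and U16A, so each pair of distinct arms shares 19 bases. The guides differ from each other at 1 base only, which is U17C from miR166a-3p to miR165a-3p.

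On TAIR10.1, miR165a-5p lies at chr1:79010-79030 on the minus strand, inside MIR165a (AT1G01183), with a noncoding transcript annotated on the other strand (AT1G08765). miR166a-5p is at chr2:19176128-19176148 on the plus strand, inside MIR166a (AT2G46685). miR166b-5p is at chr3:22922212-22922232 on the plus strand, inside MIR166b (AT3G61897). miR166e-5p lies at chr5:16775636-16775656 on the minus strand, inside MIR166e (AT5G41905). Across the nuclear chromosomes, miR165a-5p and miR166e-5p each have 1 exact match, their own locus. The sequence of miR166a-5p and miR166b-5p has 2 exact matches, which are these 2 loci, so its reads cannot be told apart between them. In the other annotated precursors of the family, the closest run differs from miR165a-5p by 1 base in MIR165b and from miR166a-5p by 1 base in MIR166c, and MIR166f holds no run closer than 5 mismatches to any of the arms.

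The 4 precursors are printed with both arms in capitals, the 5p arm first, to show where each passenger lies relative to its guide.

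MIR165a: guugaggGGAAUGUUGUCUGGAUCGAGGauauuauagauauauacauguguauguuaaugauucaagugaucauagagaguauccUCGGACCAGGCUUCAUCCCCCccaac
MIR166a: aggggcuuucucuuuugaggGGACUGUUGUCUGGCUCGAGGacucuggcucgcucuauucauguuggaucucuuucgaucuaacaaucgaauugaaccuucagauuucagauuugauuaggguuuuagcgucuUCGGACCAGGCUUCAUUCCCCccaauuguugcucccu
MIR166b: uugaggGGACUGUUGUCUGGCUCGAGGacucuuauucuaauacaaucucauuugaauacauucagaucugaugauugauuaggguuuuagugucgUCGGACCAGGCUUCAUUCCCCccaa
MIR166e: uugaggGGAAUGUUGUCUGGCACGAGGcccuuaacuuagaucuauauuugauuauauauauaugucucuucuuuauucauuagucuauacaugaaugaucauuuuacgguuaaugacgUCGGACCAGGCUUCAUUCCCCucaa

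The precursors were 111, 170, 120 and 143 bases long for MIR165a, MIR166a, MIR166b and MIR166e, with 57, 92, 68 and 91 bases between the arms. In the fold of lowest predicted energy (RNAfold), 15 bases of the 5p arm paired with the 3p arm in each of the 4 hairpins, and the 3p arm had an overhang of 2 bases. The unpaired positions of the 5p arm differed a little. They were 3, 7, 8 and 15 in MIR165a, and 4, 7, 8 and 15 in MIR166a. MIR166b had position 20 unpaired as well, and in MIR166e they were 7, 8, 15, 16 and 20. Positions 7, 8 and 15 were thus unpaired in all 4 hairpins.

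The values of the deposited table are mean normalised read counts of the 2 libraries of a group. A mean of 2 whole counts, each divided by its library's size factor (the scaling for depth), can often be solved back to the 2 counts, and this gave exactly 1 answer for 5318 of the 5894 values, including every value of the 4 arms. Library a of a group is the one with the larger factor, and library b has the smaller. Size factors ran from 0.687 to 1.36, and behind the arms stood 1773 to 5241 reads a library for miR165a-5p, 1344 to 3527 for miR166a-5p and 778 to 2248 for miR166e-5p. The deposited values add up to 4305799.9 to 7644818.2 a group. The authors' size factors fit each time on its own, so ABA and mock were compared within a time at the authors' scaling, and levels across times on size factors computed jointly over the 28 libraries.

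Averaged over the 7 times, all 4 passenger arms were higher in ABA than in mock seedlings. The mean log2 difference was 0.58 (SE 0.07) for miR166e-5p, a 1.5-fold higher level, with a limma adjusted p of 5.13e-07. For miR166b-5p it was 0.48 (SE 0.08) and for miR166a-5p 0.47 (SE 0.08), both 1.39-fold, with limma adjusted p-values of 5.93e-05. miR165a-5p had the smallest of the 4, 0.33 (SE 0.07) or 1.25-fold, with a limma adjusted p of 0.000401. So 4 of 4 arms passed the threshold of 0.05 in the direction of higher in ABA, and they stand for 3 measurements, since miR166a-5p and miR166b-5p have the same sequence.

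Changes in this comparison were common. Of 358 tested miRNAs, 22.6% were called higher in ABA, 24.6% lower and 47.2% in either direction, and the median difference of all was -0.04. The 358 leave out 58 abundant miRNAs, the guides included, whose group means could not all be solved into library values. Among the 358, counted from the highest difference, miR166e-5p ranked 32, miR166b-5p 42, miR166a-5p 43 and miR165a-5p 67. The difference was above 0 at 7 of 7 times for miR166a-5p, miR166b-5p and miR166e-5p, and 8.66% of tested miRNAs had this. For miR165a-5p it was above 0 at 5 of 7 times, and 32.4% of tested miRNAs were so at 5 or more. Whole seedlings were sampled, so a change in cells of a type and a change in RNA per cell cannot be told apart in any of these values. Leaving out each of the 28 libraries in turn kept all 4 arms called, with values of 0.55 to 0.62 for miR166e-5p, 0.44 to 0.51 for miR166a-5p and 0.30 to 0.35 for miR165a-5p.

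**Figure D1:**
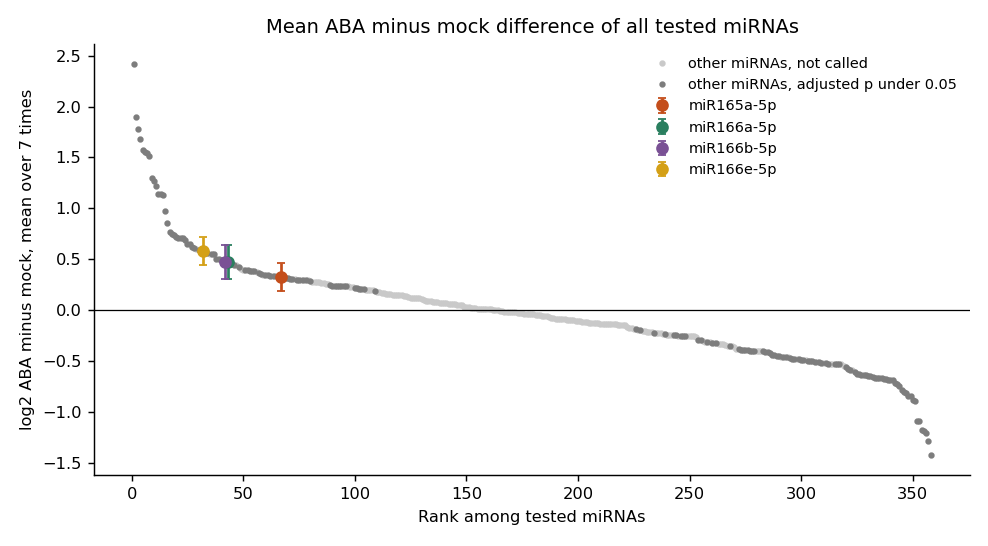
The mean log2 difference between ABA and mock over 7 times (vertical axis) is plotted for each of 358 tested miRNAs against its rank from the highest (horizontal axis), in dark grey where the limma adjusted p was under 0.05. The 4 passenger arms, coloured with their 95% confidence intervals, sit at ranks 32, 42, 43 and 67, all with intervals above 0.

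miR166e-5p, the passenger of the MIR166e hairpin, was the least abundant of the arms and showed the most regular separation. At 0.5 h its libraries a and b had 1601 and 1550 normalised counts in ABA, against 736 and 925 in mock. At 1 h they had 2077 and 1855 in ABA, against 1269 and 988 in mock. Both ABA libraries stood above both mock libraries at these times. At 3 h the values were 1804 and 2012 in ABA, against 1304 and 1855 in mock, and this was the only time at which the groups of miR166e-5p overlapped. At 6 h they were 1341 and 1475 in ABA, against 1056 and 1232 in mock. At 9 h they were 1805 and 2078 in ABA, against 1284 and 1237 in mock. Both 6 h and 9 h again had every ABA library above every mock library. The 12 h libraries had 2288 and 2561 in ABA, against 1416 and 1458 in mock. The 24 h libraries had 1916 and 2051 in ABA, against 1625 and 1450 in mock. ABA was thus clear of mock at 6 of the 7 times. The percentage of tested miRNAs with both ABA libraries above both mock libraries was 25.3% at 0.5 h, 24.6% at 1 h, 20.9% at 3 h, 25.3% at 6 h, 23.4% at 9 h, 29.6% at 12 h and 30.5% at 24 h.

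The log2 difference of miR166e-5p was 0.93 (SE 0.18) at 0.5 h, with a limma adjusted p of 0.00159, where 5.71% of 368 tested miRNAs were called higher. At 1 h it was 0.81 (SE 0.18), with an adjusted p of 0.00482 and 6.68% of 374 called higher. It also passed the threshold at 9 h (0.62, adjusted p = 0.0229, with 7.08% of 367 called higher) and at 12 h (0.75, adjusted p = 0.00699, with 6.91% of 362 called higher). The differences at 3, 6 and 24 h were 0.29, 0.30 and 0.37, with adjusted p-values of 0.334, 0.327 and 0.14. Calls at a single time rest on 4 libraries: the one at 9 h is lost without any 1 of its libraries (adjusted p of 0.0621 to 0.12), and the one at 12 h without ABA library b (0.0902) or mock library a (0.0602). Without mock library a the adjusted p at 0.5 h was 0.062, and without mock library b that at 1 h was 0.103.

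miR166a-5p and miR166b-5p, whose reads cannot be separated, were highest above mock early in the treatment. For miR166a-5p at 0.5 h, libraries a and b had 2539 and 2716 normalised counts in ABA, against 1425 and 1786 in mock. At 1 h they had 3338 and 4383 in ABA, against 2170 and 1666 in mock. At 3 h they had 2408 and 2929 in ABA, against 1683 and 1990 in mock. Through these first 3 times both ABA libraries exceeded both mock libraries, which 25.3%, 24.6% and 20.9% of tested miRNAs showed at 0.5, 1 and 3 h. At 6 h the values were 1576 and 2162 in ABA, against 1500 and 1757 in mock, and at 9 h they were 1517 and 2101 in ABA, against 1689 and 1420 in mock. Here the groups overlapped, with ABA library a inside the range of mock. At 12 h, 2564 and 2408 in ABA stood against 1823 and 1910 in mock, and at 24 h, 2411 and 2842 in ABA stood against 2080 and 2311 in mock. The groups were apart again at both of these times, with ABA above, which 29.6% and 30.5% of tested miRNAs showed at 12 and 24 h. The values of miR166b-5p were equal to those of miR166a-5p in 3 of the 14 groups and nowhere differed by more than 0.296% in the group mean, so the pair is close to 1 measurement listed under 2 names.

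The log2 difference of miR166a-5p was 0.72 (SE 0.21) at 0.5 h and 1.01 (SE 0.21) at 1 h, with limma adjusted p-values of 0.0357 and 0.00303. At the later times, 0.54, 0.19, 0.20, 0.41 and 0.26 at 3, 6, 9, 12 and 24 h, it passed the threshold at none of them, with adjusted p-values of 0.122, 0.606, 0.553, 0.25 and 0.426. At 0.5 h 5.71% of 368 tested miRNAs were called higher in ABA, and at 1 h 6.68% of 374. At 3 h 4.18% of 359 were called higher, at 6 h 4.26% of 376 and at 24 h 10.4% of 374. The call at 0.5 h is lost without any 1 of its 4 libraries (adjusted p of 0.0524 to 0.282). The call at 1 h is lost without ABA library b (0.0693) or mock library b (0.0616).

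miR165a-5p, the passenger of MIR165a, was the most abundant of the arms. At 0.5 h libraries a and b had 4428 and 4090 normalised counts in ABA, against 2632 and 3400 in mock. At 1 h they had 4103 and 3672 in ABA, against 2503 and 2466 in mock. The groups were apart at these times, with ABA above, which 25.3% and 24.6% of tested miRNAs showed at 0.5 and 1 h. At 3 h the values were 3277 and 4270 in ABA, against 3334 and 3251 in mock, and at 6 h they were 2524 and 2423 in ABA, against 2696 and 2275 in mock. At both of these times they overlapped. At 9 h the values were 3270 and 3895 in ABA, against 2752 and 2425 in mock, and at 12 h they were 4433 and 5190 in ABA, against 3519 and 3314 in mock. The ABA libraries stood above mock at 9 h and 12 h, which 23.4% and 29.6% of tested miRNAs showed at these times. At 24 h, 3787 and 4360 in ABA stood against 3974 and 4157 in mock, with the mock values inside the range of ABA.

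The log2 difference of miR165a-5p was 0.64 (SE 0.17) at 1 h, the only time at which it passed the threshold, with a limma adjusted p of 0.0203. Differences of 0.51, 0.47 and 0.49 at 0.5, 9 and 12 h had adjusted p-values of 0.0669, 0.0744 and 0.0782. At 3, 6 and 24 h it was 0.18, -0.00 and -0.00, with adjusted p-values of 0.543, 1.0 and 1.0, and the 95% confidence interval at 24 h ran from -0.36 to 0.36. Without any 1 of its 4 libraries the call at 1 h is lost (adjusted p of 0.0655 to 0.159). At 1 h 6.68% of 374 tested miRNAs were called higher in ABA.

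**Figure D2:**
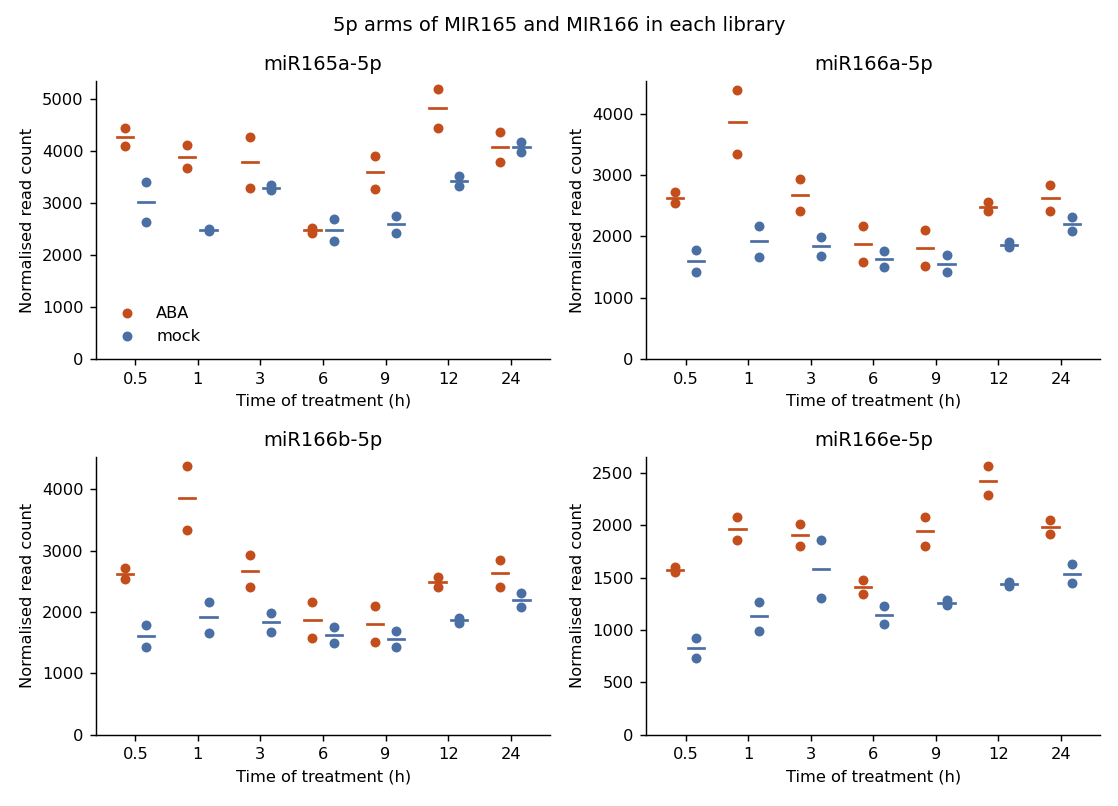
Normalised read counts (vertical axes, from 0) of the 4 passenger arms in each library are plotted by time of treatment (horizontal axes, in h), with ABA left of mock, points for the 2 libraries of a group and a line at their mean. The ABA points of miR166e-5p lie clear above mock at all times but 3 h, and the panels of miR166a-5p and miR166b-5p look alike, with group means that differ by at most 0.296%.

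In the authors' deposited table, the adjusted p-value was under 0.05 at 0.5 h for miR166e-5p (0.00291) and for miR166a-5p and miR166b-5p (0.0269 each), where 6.59% of miRNAs were called higher in ABA by the same rule. At 1 h the authors' deposited table had miR166a-5p and miR166b-5p under 0.05 (0.0259 each), with 3.67% of miRNAs called higher. At 12 h all 4 arms were under 0.05 in the authors' deposited table, miR165a-5p at 0.00311, miR166a-5p at 0.0139, miR166b-5p at 0.013 and miR166e-5p at 1.31e-06, with 12% of miRNAs called higher. At 3, 6, 9 and 24 h none of the 4 was, and the authors' deposited table called 0.246%, 2.42%, 3.68% and 5.6% of miRNAs higher at these times. The 12 h libraries alone, fitted without the other times, gave limma adjusted p-values of 0.00254 for miR165a-5p, 0.01 for miR166a-5p, 0.0094 for miR166b-5p and a called count of 96 miRNAs, against 40 in the fit over all 28 libraries.

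The arms were then compared between the early times (0.5, 1 and 3 h) and the late ones (6, 9, 12 and 24 h). For miR166a-5p the mean log2 difference between ABA and mock was 0.26 over the late times and 0.75 over the early ones, and the late minus early difference of -0.49 (SE 0.16) passed the threshold (limma adjusted p = 0.0397). miR166b-5p had the same value, -0.49, and the same adjusted p. Of 358 tested miRNAs, 10.1% were called with a lower ABA minus mock difference late than early. The late minus early difference was -0.21 (SE 0.13) for miR165a-5p and -0.17 (SE 0.14) for miR166e-5p, with adjusted p-values of 0.304 and 0.438. For miR166e-5p the means were 0.51 late and 0.68 early, and for miR165a-5p 0.24 late and 0.45 early. The call of miR166a-5p is lost in 17 of the 28 fits that leave out 1 library, with adjusted p-values up to 0.0967, and its value there stayed between -0.56 and -0.42. In the F test of treatment by time none of the 4 arms passed (adjusted p of 0.326 to 0.344), where 6.42% of miRNAs were called.

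Whether the arms differed from each other in response was tested over the 7 times, 1 value a time, with an exact two-sided sign-flip permutation test, chosen after their values had been seen. This test takes the 7 times as independent values, and its smallest possible p is 0.0156. The log2 difference between ABA and mock was larger for miR166e-5p than for miR165a-5p at 7 of 7 times, by a mean of 0.26 (SD 0.12), with an exact permutation p of 0.0156 and 0.0469 adjusted over the 3 pairs of distinct sequences. These 2 arms share the seed. Between miR166e-5p and miR166a-5p the mean difference was 0.11 (SD 0.25, higher at 5 of 7 times), with an exact permutation p of 0.281. Between miR166a-5p and miR165a-5p it was 0.15 (SD 0.23, higher at 5 of 7 times), with an exact permutation p of 0.156 and 0.234 adjusted. In level, the ratio of miR166e-5p to miR165a-5p had a median of 0.506 over the 7 ABA groups and of 0.454 over the 7 mock groups.

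**Figure D3:**
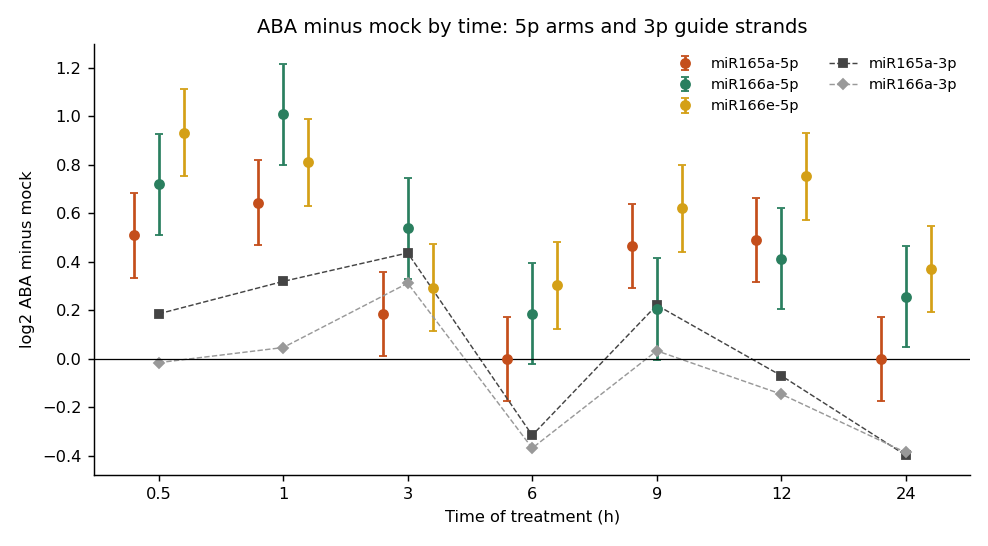
The log2 difference between ABA and mock (vertical axis) at each time of treatment (horizontal axis, in h) is shown for 3 distinct passenger sequences, as limma estimates with standard errors, and for guides miR165a-3p and miR166a-3p, as the log2 ratio of group means with no error. The difference of miR166a-5p reaches 1.01 at 1 h, and both guides lie below 0 at 6, 12 and 24 h.

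The guide strands were the second readout of the family. Their counts pool every locus with the same guide, so they are not those of the 4 hairpins alone. The guides were too abundant for their group means to be solved into libraries, so arms and guides were set side by side in a limma fit of the 7 log2 ratios of group means. That fit takes the 7 times as independent values, and its p-values measure the spread between times. Deposited means ran from 19462 to 44735 for miR165a-3p and from 68306 to 135449 for miR166a-3p. In this fit miR166e-5p was higher in ABA by 0.58 (adjusted p = 0.00405), and miR166a-5p and miR166b-5p by 0.48 each (adjusted p = 0.0129), where 12.3% of 407 tested miRNAs were called higher. miR165a-5p had the value 0.33 and an adjusted p of 0.0517, just short of the threshold, and it passed without the 6 h ratio (0.38, adjusted p = 0.0466) or the 24 h ratio (0.38, adjusted p = 0.0391). Of the 9 guide entries, which hold 2 distinct sequences, none was called by limma and none had an unadjusted p under 0.05, where 27% of the 407 were called in either direction and 14.7% lower. miR165a-3p had a difference of 0.05 (95% interval -0.22 to 0.33, adjusted p = 0.783), and miR166a-3p one of -0.08 (-0.33 to 0.18, adjusted p = 0.664).

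By time, the authors' deposited table gives miR165a-3p log2 ratios of ABA over mock of 0.19, 0.32, 0.44, -0.32, 0.22, -0.07 and -0.40 at 0.5, 1, 3, 6, 9, 12 and 24 h. None of these was under an adjusted p of 0.05 in the authors' deposited table. The guide means lay on either side of mock by time. At 3 h miR165a-3p had a mean of 41070 in ABA and 30358 in mock, and miR166a-3p one of 135449 in ABA and 109154 in mock. At 24 h miR165a-3p had 27586 in ABA and 36341 in mock, and miR166a-3p had 101192 in ABA and 132242 in mock.

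For each hairpin, the 5p arm can be set against the 3p entry of the same name in the same group means. A scaling common to the 2 libraries of a group cancels there. In this family the 3p sequence is shared with other loci, so it is not the arm of 1 hairpin alone. The 5p to 3p ratio was higher in ABA than in mock at 7 of 7 times for MIR166a and MIR166b, by a mean log2 of 0.55 each, with an exact sign-flip permutation p of 0.0156 each. MIR166a and MIR166b have the same 5p sequence and the same 3p sequence, so these 2 ratios are close to 1 measurement. For MIR166e the ratio was higher at 6 of 7 times, by 0.65, and for MIR165a at 6 of 7 times, by 0.27, each with an exact permutation p of 0.0312. The exception was 3 h for both, with -0.04 for MIR166e and -0.24 for MIR165a. In 80 hairpins both arms were listed, each with a mean over groups of at least 10. Of these, 31 (38.8%) had an unadjusted exact p under 0.05. After Benjamini-Hochberg adjustment over the 80 none passed, and the 4 loci had adjusted exact p-values of 0.0833 to 0.0962. The design allows no less than 0.0156 before adjustment, and the test takes the 7 times as independent values. Ranked by the mean from the highest, MIR166e was at 9, MIR166a at 11, MIR166b at 13 and MIR165a at 23 among the 80, whose median was -0.00.

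As a share of the 2 arms of the hairpin, miR165a-5p made up a mean of 10.5% in ABA groups (8.0% to 12.9%) and of 8.84% in mock groups (6.48% to 10.1%). For miR166a-5p the share was 2.31% in ABA groups (1.85% to 2.79%) and 1.58% in mock groups (1.41% to 1.81%). miR166e-5p had 1.83% in ABA groups (1.45% to 2.16%) and 1.18% in mock groups (0.78% to 1.49%). These shares set a 5p count against a 3p count that holds reads of every locus with the same guide. The miR166 guide sequence is listed for 7 loci, so a share of 1 locus alone cannot be had from these values.

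**Figure D4:**
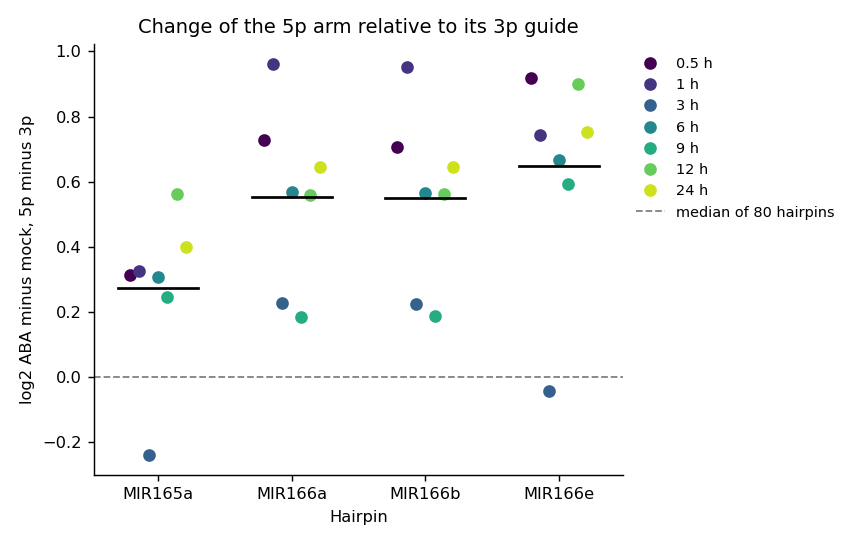
The ABA minus mock log2 difference of the 5p arm minus that of the 3p arm (vertical axis) is plotted for 4 hairpins (horizontal axis), with 1 coloured point for each of 7 times, a black line at the mean and a dashed line at the median of 80 hairpins. All points of MIR166a and MIR166b lie above 0, and those of MIR165a and MIR166e at 3 h lie below it.

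Across the day, the level of the arms was compared on the joint scale. The mock groups of miR166e-5p ran from 781 at 0.5 h to 1664 at 24 h, a 2.13-fold range, and changed with time (limma F test, adjusted p = 0.00539). Those of miR165a-5p ran from 2070 at 1 h to 4398 at 24 h, a 2.12-fold range, and also changed (adjusted p = 0.0215). For miR166a-5p they ran from 1509 at 0.5 h to 2375 at 24 h and did not pass the threshold (adjusted p = 0.345). In mock 14.5% of 359 tested miRNAs were called, and in ABA 14.2%. In ABA none of the 4 arms passed, with adjusted p-values of 0.102 to 0.128, and with the authors' scaling within each time all 4 did (0.00807 to 0.0395). The call of miR165a-5p in mock is lost without either mock library of 1 h or of 24 h (adjusted p of 0.0663 to 0.0845).

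In the order of the 14 groups, miR166e-5p was highest in ABA at 12 h (2258 ± 215, SD, n = 2) and lowest in mock at 0.5 h (781 ± 132), and 6 of its 7 highest groups were ABA. miR166a-5p was highest in ABA at 1 h (3155 ± 578) and lowest in mock at 0.5 h (1509 ± 251), with 6 ABA groups in the top 7. miR165a-5p was highest in ABA at 12 h (4482 ± 567) and lowest in mock at 1 h (2070 ± 29), with 5 ABA groups in the top 7. Its mock group at 24 h, at 4398 ± 98, ranked 3 in that order. Most steps in the order were within the spread: the libraries of neighbouring groups overlapped at 10 of 13 steps for miR166e-5p and miR165a-5p and at 13 of 13 for miR166a-5p.

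The miRNAs whose pattern over the 14 group means was most like each arm were taken by the Pearson correlation of joint log2 levels among 336 miRNAs, as a description, since all share the same libraries and size factors. For miR166e-5p they were miR408-5p (r = 0.86), the passenger of a hairpin whose guide acts on copper protein mRNAs, miR390b-3p (0.85) and miR167c-3p (0.81). For miR166a-5p they were miR167c-3p (0.84), miR162b-5p (0.80) and miR398a-3p (0.79), and for miR165a-5p they were miR168b-3p (0.82), miR156d-3p (0.80) and miR5633 (0.78). Between the arms themselves r was 0.77 for miR165a-5p and miR166e-5p, 0.69 for miR166a-5p and miR166e-5p and 0.65 for miR165a-5p and miR166a-5p. With the guide listed for its hairpin the r of each was lower, 0.50 for miR165a-5p, 0.27 for miR166a-5p and 0.12 for miR166e-5p.

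Other arms, taken as passengers by name, did not move in a single direction in ABA. Of 43 listed passenger arms of other miRNA families, 36 were tested in the mean over 7 times, and 11 were higher in ABA, 12 lower and 13 not called. Their median was -0.03, against -0.04 for all tested miRNAs, of which 22.6% were higher and 24.6% lower. In the fit of group means, which covers all 43, 9 were higher, 6 lower and 28 not called, with a median of 0.10 against -0.02 for all 407. Among them miR408-5p had a log2 difference of 1.68 (SE 0.11) and miR156f-3p one of 1.27 (SE 0.15). miR167a-3p, the passenger of a miRNA that acts on auxin response factors, had -1.20 (SE 0.13), and miR169b-3p had -1.19 (SE 0.13). All 4 of these passed, with limma adjusted p-values of at most 7.89e-07. At 0.5 h limma called 7 of 36 such arms higher, where 5.71% of all were, and none lower (4 were lower at an unadjusted p under 0.05), with a median of 0.46 against -0.04 for all. At 24 h 3 of 36 were higher and 13 lower, where 10.4% of all were higher and 11% lower, with a median of -0.29 against -0.01 for all. Some of the 43 were the larger arm of their hairpin in these counts. The mean share was 88.0% in ABA and 86.5% in mock groups for miR170-5p, and 80.7% and 82.1% for miR398b-5p. Some entries had near-equal values, such as miR398b-5p and miR398c-5p (0.95 each in the fit of group means), so the 43 are not all separate measurements.

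The other miRNAs of leaf polarity and leaf growth (miR390, miR319, miR396 and miR164, which act on trans-acting siRNA precursors, TCP, GRF and NAC mRNAs) were counted beside the arms. Of 16 listed, 10 were tested, and 1 was higher in ABA, 5 were lower and 4 were not called, with a median of -0.30, where 24.6% of all tested miRNAs were lower and the median of all was -0.04. The 10 held no miR319 entry and, of miR396, only miR396b-3p. The group means of the other listed miRNAs could not all be solved into library values. Lower were miR390a-5p, miR390b-5p and the 3p arms miR390a-3p, miR396b-3p and miR164c-3p. In the fit of group means, which covers all 16, limma called none higher, 3 lower and 13 in neither direction. At an unadjusted p under 0.05, 2 were higher and 6 lower. The median was 0.01, against -0.02 for all. miR390a-5p had a difference of -0.63 (SE 0.07), with a limma adjusted p of 1.37e-07, and miR390b-5p one of -0.62 (SE 0.07). These 2 were near-equal, as were miR164a and miR164b-5p (0.16 each), so the 16 are not all separate measurements. miR390a-3p, the passenger of miR390a, was lower as well, at -0.67 (SE 0.13), while miR390b-3p, the passenger of miR390b, was higher, at 0.29 (SE 0.10, adjusted p = 0.0262). miR396b-3p had -0.46 (SE 0.12, adjusted p = 0.00473).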

How the data were processed

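The 28 samples are small RNA profiles of ABA and mock seedlings, grouped by their titles. The submitters' processing notes name FastQC, STAR and the TAIR10 build. Which counter and normalization were used, and what was done with multi-mapping reads, is not given in the sources used here. Per the file headers, the deposited table holds 14 columns of group signal and the authors' deposited log2 ratio and adjusted p-value for each of 7 times. The values of the signal columns show that they are means of 2 counts over size factors.

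Each mean was split into library values where exactly 1 pair of whole counts gave it to 10 significant digits (tolerance 1.05, in units of the rounding error), which held for 363 of 421 miRNAs in all groups. Recovered counts add up to 218054 to 820629 a library, without the 58 abundant miRNAs that were not fully split. log2(value + 1) went into limma 3.58.1 under R 4.3.3 (lmFit, then eBayes with its trend option) with 14 group means, which left 14 residual degrees of freedom. A miRNA was tested if 2 or more libraries had a value of 1 or higher. Tests were two-sided, with Benjamini-Hochberg adjustment over all tested miRNAs and 0.05 as the threshold. Joint size factors used the median of ratios over 300 miRNAs. The split and the fits were tested on simulated data. Differences are on the log2(value + 1) scale.

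Sequences and positions are from RefSeq TAIR10.1, joined by name for 413 of 421 miRNAs, and no position was carried between builds. Hairpins were folded with RNAfold 2.7.2. The arms, lists and tests were chosen with earlier results of these data known. By the naming rule the 4 arms and the family's guides were always named, with the 3 miRNAs of highest Pearson r for each distinct sequence (mean over groups of at least 10) and, for each list, the 4 called members of largest difference.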

Additional observations from a re-analysis of the deposited data

Results flagged for a closer look

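The ABA minus mock difference of miR166a-5p was smaller at the late times than at the early ones, with a log2 late minus early difference of -0.49 (SE 0.16, limma adjusted p = 0.0397). For miR166b-5p, which has the same sequence and nearly equal counts, it was also -0.49 with the same adjusted p. This was marked because the test is one of the difference between the 2 periods itself. The adjusted p lies close to 0.05: it rises above it in 17 of the 28 fits without 1 library (0.052 to 0.0967), and with joint scaling it was 0.039. The guide miR166a-3p had log2 ratios of ABA over mock of -0.37, 0.03, -0.15 and -0.39 at the 4 late times and of -0.02, 0.05 and 0.31 at the 3 early ones in the authors' deposited table, and its part in the result was not tested.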

How the results depend on the processing

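The mean difference over 7 times kept its direction and its call for all 4 arms under joint scaling, median centring, no filter, a pseudocount of 0.1, no mean-variance trend and without each library; with 1 entry for each distinct sequence it was recomputed for the 3 sequences only. No paired analysis was possible because the table's columns carry no replicate number. In the fit of group means, miR165a-5p passed with a pseudocount of 0.1 (0.33, adjusted p = 0.0494), without 6 h (0.38, 0.0466) and without 24 h (0.38, 0.0391), over a range of 0.28 to 0.38 with each time left out. With the authors' scaling the time course count was 98 in ABA, against 51, and 86 in mock, against 52. With only the 4 libraries of the time, called counts were 6 at 3 h, 18 at 6 h and 96 at 12 h, against 24, 34 and 40, and the calls of miR166a-5p and miR166b-5p at 0.5 h (adjusted p = 0.0661), miR165a-5p at 1 h (0.0916) and miR166e-5p at 9 h (0.192) were lost. Median centring called miR165a-5p at 0.5 h (0.0430). Joint scaling turned miR165a-5p at 24 h to 0.0055. Without 1 library at a time, called counts ran from 11 to 40 at 0.5 h, 16 to 41 at 1 h, 9 to 38 at 3 h, 15 to 41 at 6 h, 16 to 60 at 9 h, 19 to 42 at 12 h and 32 to 89 at 24 h, from 37 to 71 for late minus early and from 6 to 67 for the time course in mock, with the lowest of the last without mock library a of 24 h. Differences near 0 changed sign there: miR165a-5p ran from -0.0067 to 0.38 at 3 h, -0.12 to 0.12 at 6 h and -0.10 to 0.10 at 24 h, and miR166a-5p and miR166b-5p each from -0.043 to 0.41 at 6 h and, at 9 h, from -0.030 and -0.031 to 0.44. The leave-one-out fits of late minus early and of the time courses were added after the data had been seen. The cause was not tested.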
